A study of Homo sapiens with 4 samples.

Results

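ABI1, ABI2 and ENAH encode regulators of the actin cytoskeleton, and the events described here are all those that carried 1 of these 3 gene symbols in the deposited tables of alternative splicing. They came to 89 of 121269 events, 26 in ABI1, 55 in ABI2 and 8 in ENAH. By type, 58 were skipped exons, 26 were pairs of mutually exclusive exons and 5 were alternative 3′ splice sites, while no alternative 5′ splice site and no retained intron was listed for these genes. RNA-seq had been made from U87MG cells, an established line that the labels call a likely glioblastoma. Cells were transfected with lipofectamine and 2.5 µM of either RBFOXi, a single-stranded 2′-O-methyl RNA that repeats the motif bound by RBFOX proteins, or SCRM, a scrambled oligonucleotide, with 2 independent replicates each. The label of RBFOXi replicate 1 names a Cy5-tagged oligonucleotide and the labels of the other 3 libraries name no dye. All cells received an oligonucleotide, so no library shows untreated cells.

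ABI1 and ABI2 are paralogous subunits of the WAVE regulatory complex, which passes signals from the small GTPase RAC1 to the Arp2/3 complex and so starts branched actin filaments at the leading edge of a cell. ENAH, also called Mena, belongs to the Ena/VASP proteins, which bind the growing ends of actin filaments and let them elongate. RBFOX proteins bind UGCAUG in introns, and sites after an alternative exon are known for promoting its inclusion, while sites before it are known for promoting skipping.

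The exons of ABI1 and ABI2 of equal length, 87 nt each, are set side by side because they occupy the matching place in the paralogs and their inclusion took different courses. Both are coding in GENCODE, as exon 9 of the canonical ABI1 transcript on chr10:27044584-27044670 (hg19, minus strand) and exon 10 of the canonical ABI2 transcript on chr2:204276008-204276094 (plus strand). Read 5′ to 3′, 64 of the 87 positions were identical without a gap (73.6%), and these are in capitals.
ABI1 exon: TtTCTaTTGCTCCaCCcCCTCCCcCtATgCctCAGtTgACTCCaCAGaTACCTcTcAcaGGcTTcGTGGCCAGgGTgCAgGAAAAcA
ABI2 exon: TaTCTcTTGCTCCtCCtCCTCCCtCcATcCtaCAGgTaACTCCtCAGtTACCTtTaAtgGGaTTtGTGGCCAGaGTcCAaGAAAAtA

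The introns that follow these exons differed in the RBFOX motif. The first 100 nt after the ABI1 exon lie on chr10:27044484-27044583 (minus strand) and those after the ABI2 exon on chr2:204276095-204276194 (plus strand). The motif, TGCATG in DNA letters and searched on the transcribed strand only, is in capitals.
ABI1 intron: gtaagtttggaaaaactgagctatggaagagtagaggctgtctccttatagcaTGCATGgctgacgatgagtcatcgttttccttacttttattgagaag
ABI2 intron: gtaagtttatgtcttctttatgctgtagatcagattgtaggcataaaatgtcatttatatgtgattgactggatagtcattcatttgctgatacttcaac
In ABI1 the motif began at nt 54 and again at nt 172 of the intron, and the whole intron of 3871 nt held 7 copies. The ABI2 intron of 5536 nt held 3 copies, of which the first began at nt 693. Among the 30617 distinct exons tested, 8.73% had TGCATG in the 300 nt after the exon and 8.47% in the 300 nt before it. For the shorter GCATG, which every TGCATG contains, the shares were 25.4% and 25.0%. Neither 87 nt exon had TGCATG in the 300 nt before it. The whole intron before the exon held 1 copy in ABI1, over 3320 nt, and 4 in ABI2, over 8550 nt. A match is a description of the letters and not a measured binding site.

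The authors deposited, for each event and library, how many reads matched inclusion of the alternative region and how many matched its skipping. From these counts, the proportion spliced in (PSI, 0 for full skipping and 1 for full inclusion) was computed with the effective length of each form, and delta PSI is the RBFOXi mean minus the SCRM mean. Testing required 5 counts or more in each library, 20 on average, and 4 of each form in total. This left 59 of the 89 events, namely 17 in ABI1, 38 in ABI2 and 4 in ENAH. An event was called if limma gave an adjusted p under 0.05 over all events of its type and delta PSI was 0.1 or more in either direction. With 2 against 2 libraries an exact permutation test of a single event cannot go below p = 0.333, so the tests rest on the spread that limma pools over events.

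SCRM replicate 1 stood apart from the other libraries. Over 1480 genes with several well-included exons, the median log2 ratio of counts at the first to the last such exon was -1.06 in SCRM replicate 1, against 0.26 in SCRM replicate 2, 0.01 in RBFOXi replicate 1 and 0.00 in RBFOXi replicate 2. Counts in SCRM replicate 1 thus fell away towards the 5′ ends of transcripts. In ABI1 it held 0.251 of the counts of SCRM replicate 2 at the first well-included exon and 0.602 at the last. In ABI2 the ratio went from 0.234 to 0.712, and in ENAH from 0.0726 to 0.122, so that ENAH was thinly covered in this library throughout. The ratio of the RBFOXi libraries lay between 0.793 and 0.997 in ABI1, between 0.888 and 1.03 in ABI2 and between 0.647 and 0.766 in ENAH. In bulk RNA, fewer cells with a transcript and less of it per cell cannot be told apart. Values without SCRM replicate 1 are given beside the results that rest on it most. Summed counts over skipped exon events were between 114415530 and 136097319 per library, and a read may be counted in several events.

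**Figure D1:**
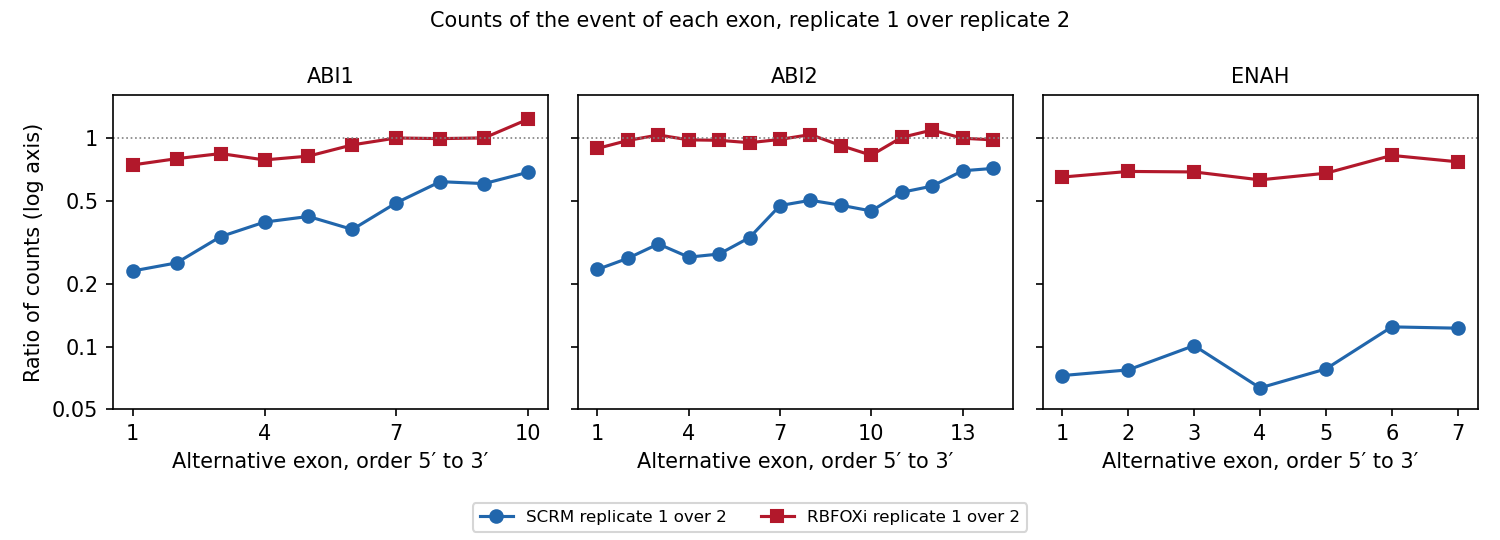
Counts of replicate 1 over replicate 2 (log axis) for the best covered skipped exon event of each alternative exon, ordered 5′ to 3′ along the gene, for SCRM (circles) and RBFOXi (squares). The SCRM ratio climbs from 0.230 to 0.683 over the 10 exons of ABI1 and stays at or below 0.124 over the 7 exons of ENAH.

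Marker genes were read from their skipped exon events. The best covered VIM event had between 128266 and 185009 counts per library, FN1 between 76664 and 104774, and CD44 between 18796 and 34169. TNC had 17378 counts in SCRM replicate 1 and between 60036 and 101713 in the other libraries. NES was far lower, with between 179 and 432 counts in its 1 event. No skipped exon event carried the symbols EPCAM, CDH1 or ESRP1, and ESRP2 had between 0 and 7 counts. Of the targeted family, RBFOX2 had 351 counts in SCRM replicate 1 and between 1335 and 2392 in the other libraries, while no event carried RBFOX1 or RBFOX3.

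In ABI1, the 87 nt exon lost inclusion with RBFOXi. In its best covered event, where it is flanked by the 177 nt exon before it and a 186 nt exon after it, PSI was 0.352 and 0.445 in the RBFOXi libraries and 0.766 and 0.779 in the SCRM libraries, on 456 to 697 counts. Both RBFOXi values lay below both SCRM values, and the groups were separated by far more than the replicates of either differed. Delta PSI was -0.374, and the log2 odds of inclusion fell by 2.36 (SE 0.359, 95% interval -3.07 to -1.65; limma, adjusted p = 8.31e-06). The call held without any 1 library, with adjusted p between 6.15e-05 and 0.0218, and delta PSI was -0.381 without SCRM replicate 1. Ordered by the size of the fall, this event ranked 29 of the 39615 skipped exon events tested and 15 of the 66 called.

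Of the 32 skipped exon events tested in the 3 genes, 4 were called and all 4 were losses of inclusion in ABI1, against 0.167% of all tested skipped exon events called in either direction and 0.136% called with lower inclusion. In 14 of the 32, the libraries of the groups did not overlap, against 30.8% of all tested events, and 8 had an unadjusted limma p under 0.05, against 3.32%. The 4 calls depended on how limma modelled the spread. With the variance trend placed on total counts instead of on the counts of both forms, an alternative added after the data were seen, 0 of the 39615 events were called. The 87 nt exon then had an unadjusted limma p of 0.0137 and an adjusted p of 1.00. A quasi-binomial F test, also added, called 4 events in these genes.

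**Figure D2:**
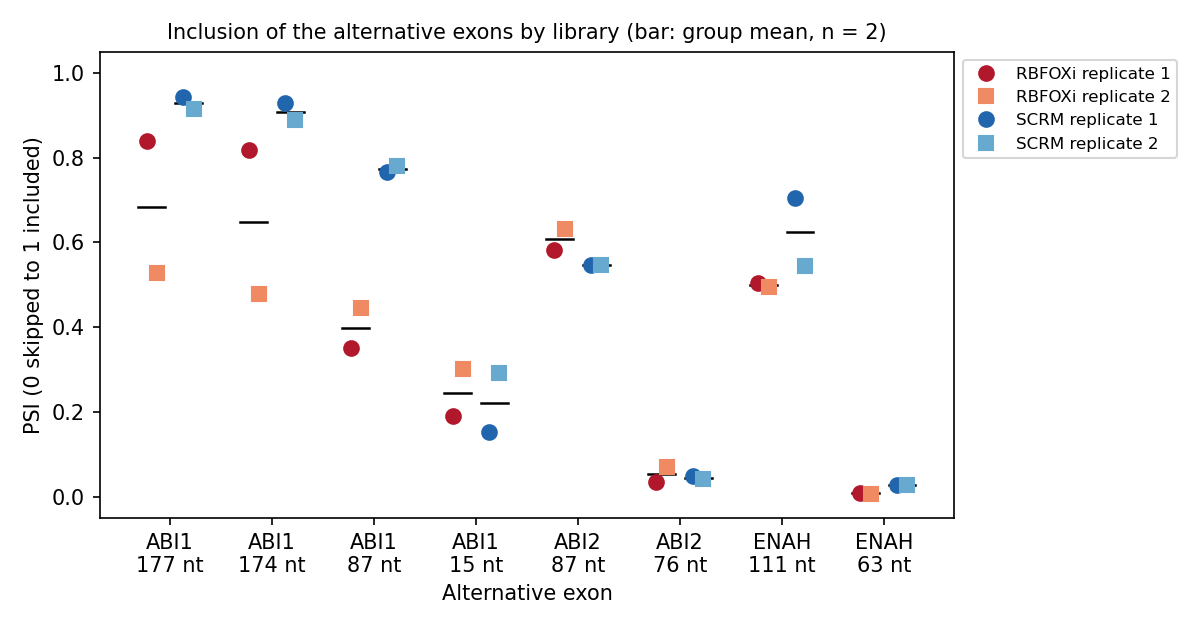
PSI of 8 alternative exons (x axis, gene and exon length) in each library, with RBFOXi in red and SCRM in blue and a bar at the mean of each group (n = 2). The ABI1 87 nt exon sits at 0.352 and 0.445 with RBFOXi against 0.766 and 0.779 with SCRM, while the ABI2 87 nt exon stays between 0.546 and 0.633 in all 4 libraries.

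The other called events described the same stretch of ABI1. Before the 87 nt exon lies the 177 nt exon on chr10:27047991-27048167, exon 8 of the canonical transcript, which also occurs as a 174 nt form on chr10:27047991-27048164. Against skipping of both exons, the 87 nt exon had PSI 0.619 and 0.268 with RBFOXi and 0.935 and 0.885 with SCRM (delta PSI -0.467; limma, adjusted p = 1.25e-06). The 177 nt exon had 0.840 and 0.527 against 0.944 and 0.913 (delta PSI -0.245; limma, adjusted p = 0.0108). Its 174 nt form had 0.818 and 0.479 against 0.928 and 0.889 (delta PSI -0.26; limma, adjusted p = 0.0236). In all 3 events both RBFOXi libraries lay below both SCRM libraries, and RBFOXi replicate 2 was far below RBFOXi replicate 1.

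These 3 events rest on 1 shared junction, from the 101 nt exon before the 177 nt exon straight to the 186 nt exon, and so are not independent. It was read 60 and 231 times with RBFOXi and 10 and 26 times with SCRM. RBFOXi replicate 2 decided the calls, and the settings moved the events of the 177 nt exon and its 174 nt form. By the plain share of inclusion reads, delta PSI was -0.123 and -0.14. A pseudocount of 0.1 ended both calls (limma, adjusted p = 0.118 and 0.208), and a pseudocount of 1 ended that of the 174 nt form (adjusted p = 0.0618). Without RBFOXi replicate 2, delta PSI was -0.292 for the 87 nt exon (adjusted p = 0.147), -0.0883 for the 177 nt exon and -0.0908 for the 174 nt form (adjusted p = 1.00 for both, limma). Without SCRM replicate 1, the 177 nt exon had an adjusted p of 0.0305 and the 174 nt form one of 0.0795, and without SCRM replicate 2 they had 0.263 and 0.310. When the exon after was the 87 nt exon, PSI of the 177 nt exon was 0.957 and 0.942 with RBFOXi and 0.954 and 0.891 with SCRM, and the groups overlapped by this measure (delta PSI 0.0269; limma, unadjusted p = 0.363).

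Junction counts out of the 101 nt exon showed where the reads went. Of the reads that left it for 1 of 4 acceptors, 12.8% (Wilson 95% interval 10.0 to 16.1) in RBFOXi replicate 1 and 35.6% (32.1 to 39.4) in RBFOXi replicate 2 skipped both exons. In SCRM the shares were 3.86% (2.11 to 6.96) and 4.42% (3.04 to 6.40). The RBFOXi libraries thus differed from each other by more than counting error, and both lay above the SCRM libraries. A direct junction to the 87 nt exon was rare, at 2.34% and 2.16% with RBFOXi and 3.47% and 6.63% with SCRM. The remaining reads went to the 177 nt exon or its 174 nt form. These intervals cover counting error only.

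The path that left out the 87 nt exon differed between the RBFOXi libraries more than its total did. RBFOXi replicate 1 had 278 reads from the 177 nt exon directly to the 186 nt exon and 60 that skipped both, and RBFOXi replicate 2 had 183 and 231. SCRM had 67 and 10 in replicate 1 and 92 and 26 in replicate 2. With both skipping junctions set against all reads that include the exon, a measure added after the data were seen and given without a test, PSI was 0.317 and 0.271 with RBFOXi and 0.745 and 0.746 with SCRM. The means were 0.294 ± 0.0323 and 0.745 ± 0.000717 (SD, n = 2 each), a difference of -0.451. By this measure the replicates lay closer together in both groups than in either single event.

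**Figure D3:**
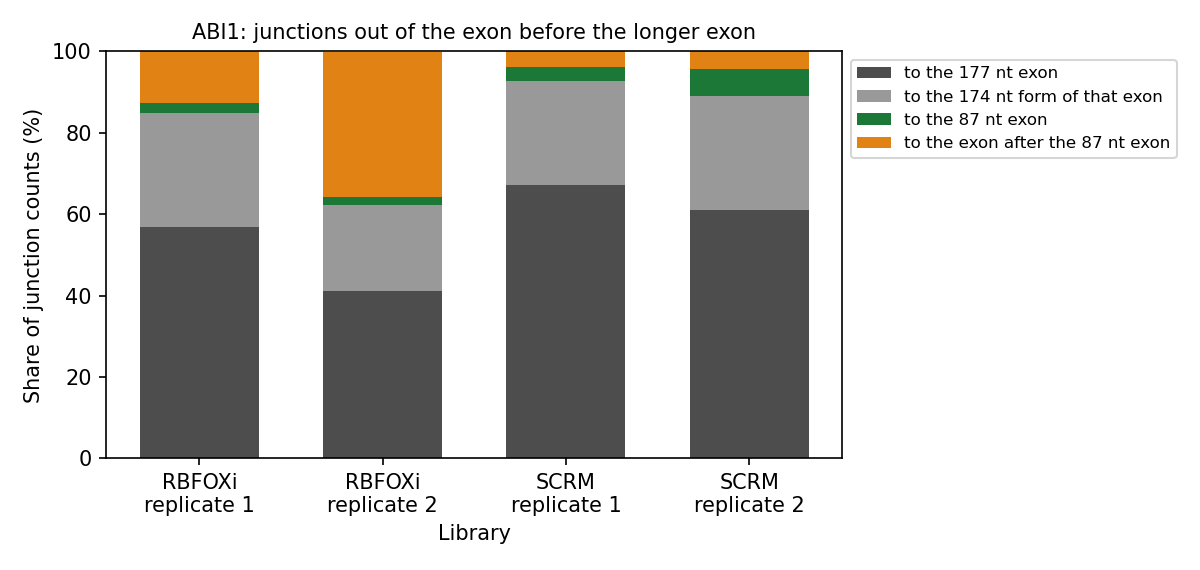
Share (%) of the junction counts that leave the 101 nt exon of ABI1 for each of 4 acceptors, stacked to 100 in each library. Skipping of both exons (top segment) takes 12.8% and 35.6% in the RBFOXi libraries and 3.86% and 4.42% in the SCRM libraries.

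The mutually exclusive exon table gave a second readout of the ABI1 exon. Such an event sets the reads on 1 exon of a pair and its junctions against those on the other, and its inclusion form was that of the exon first in the transcript in all 26971 events where the lengths allowed a check. The deposited counts include reads within the exons, so transcripts that hold both exons add to both forms and the share does not measure exclusive use. For example, a 168 nt and a further 177 nt exon near the 5′ end of ABI1 were each included in nearly all transcripts, yet in their 2 MXE events the share of the 168 nt form was 0.521 to 0.778. Against the 177 nt exon, the share of the 87 nt form was 0.236 and 0.247 with RBFOXi and 0.462 and 0.423 with SCRM. Against the 174 nt form, it was 0.265 and 0.284 with RBFOXi and 0.525 and 0.492 with SCRM. Both RBFOXi values again lay below both SCRM values. The 87 nt form fell by 0.201 and 0.234 in PSI units, and the log2 odds of the earlier exon rose by 1.32 (95% interval 0.87 to 1.76) and 1.45 (1.00 to 1.90).

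Neither MXE event was called, with unadjusted p of 5.36e-05 and 2.53e-05 and adjusted p of 0.154 and 0.132 over the 26176 MXE events tested (limma). Without SCRM replicate 1, the first had an adjusted p of 0.019 and without SCRM replicate 2 one of 0.00322, while without RBFOXi replicate 1 or 2 it had 0.684 or 0.736. With the replicate number as a block both were called (limma, adjusted p = 2.71e-05 and 2.05e-06), but whether the numbers pair the libraries is not stated. Both readouts of the ABI1 exon had the same direction, and the size of the fall was 0.374 by the skipped exon event and 0.201 by the best covered MXE event. They are not independent, because the counts of the 87 nt exon in the MXE events, 181 and 157 with RBFOXi and 267 and 374 with SCRM, are the same reads as in the event that skips both exons. The forms they are set against differ as well. The counts of the 177 nt exon in its MXE event, 913 and 745 with RBFOXi and 484 and 794 with SCRM, are those of its own skipped exon event. Its MXE value of 0.201 and the fall of 0.201 for the 87 nt form are thus 1 measurement, and it is no separate readout of the 177 nt exon. Skipped exon and MXE events gave opposite signs for the 177 nt exon (delta PSI -0.245 and 0.201) and for its 174 nt form (-0.26 and 0.234).

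**Figure D4:**
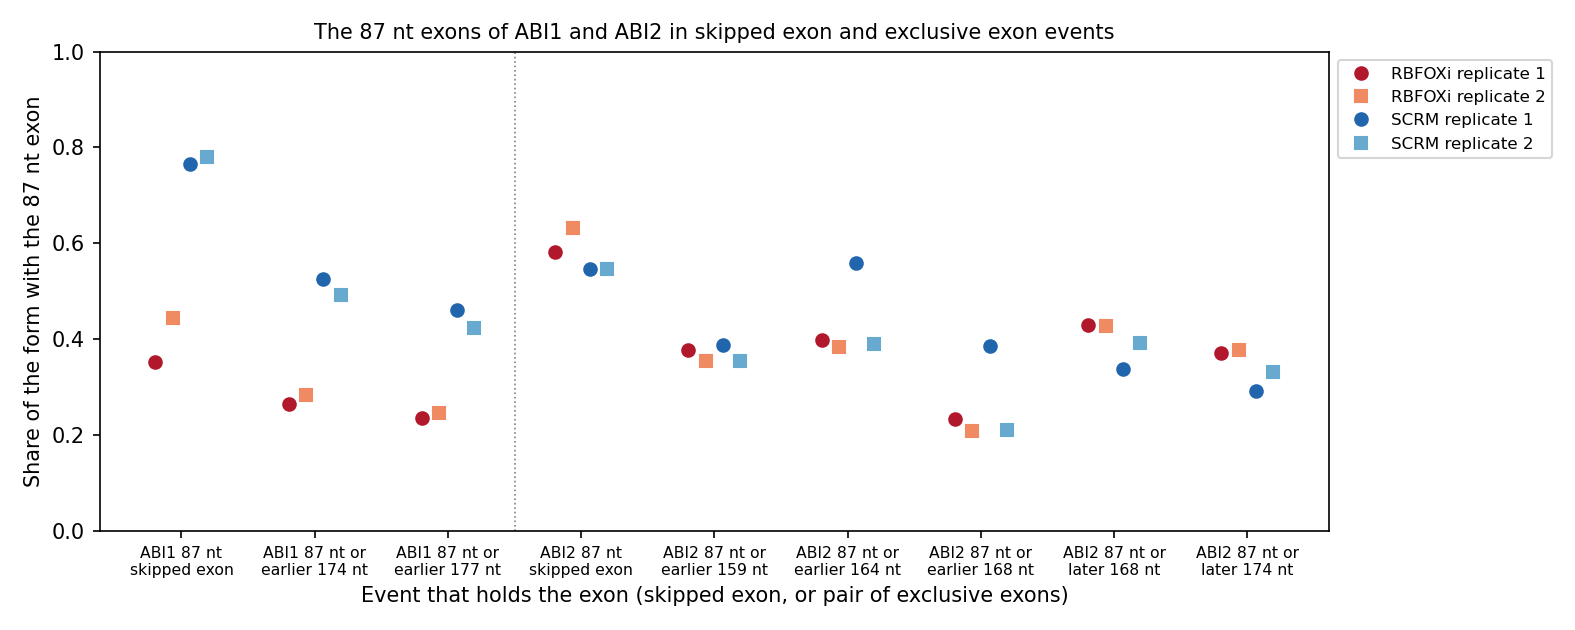
Share of the form with the 87 nt exon in each library, for the best covered skipped exon event and for every exclusive exon event that holds the exon, in ABI1 (left of the dotted line) and ABI2 (right). All 3 ABI1 readouts put both RBFOXi libraries below both SCRM libraries, and in ABI2 the events with an earlier 164 nt or 168 nt partner set SCRM replicate 1 apart from the other 3 libraries.

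Over the 3 genes, 0 of the 23 MXE events tested were called, against 0.0115% of all tested MXE events, and 2 had an unadjusted limma p under 0.05, the same 2 ABI1 events, against 1.47%. The quasi-binomial F test also called 0. In 8 of the 23 the groups did not overlap, against 24.4% of all tested. With SCRM replicate 1 as the only control, 10 of the 23 would be called, as would 1102 events in the whole table, and with SCRM replicate 2 as the only control 2 would be. The other 3 tested ABI1 pairs joined constitutive exons nearer the 5′ end and had changes of at most 0.0111 in PSI.

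In ABI2, the 87 nt exon was not called in any readout. PSI of its best covered skipped exon event was 0.582 and 0.633 with RBFOXi and 0.546 and 0.548 with SCRM, on 440 to 751 counts. Both RBFOXi values lay above both SCRM values. The gap between the nearest values of the groups was smaller than the spread between the RBFOXi replicates. Delta PSI was 0.0605, and the log2 odds changed by 0.36 (SE 0.331, 95% interval -0.30 to 1.02; limma, unadjusted p = 0.281). The interval for the ABI2 exon does not reach that for the ABI1 exon, -3.07 to -1.65, and the difference between the genes was not itself tested. A further event that sets the exon beside the shorter 168 nt form of the exon after it had PSI between 0.961 and 0.988.

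The ABI2 exon entered 5 MXE events, and their signs differed with the partner. With the later 174 nt exon as partner, the share of the 87 nt form was 0.371 and 0.378 with RBFOXi and 0.292 and 0.332 with SCRM (limma, unadjusted p = 0.0669). With the earlier 168 nt exon near the 5′ end, it was 0.234 and 0.208 with RBFOXi and 0.386 and 0.21 with SCRM (unadjusted p = 0.152). In the latter, SCRM replicate 1 was high and SCRM replicate 2 lay among the RBFOXi libraries. Delta PSI of the earlier exon in this pair was 0.0774 with all libraries and -0.0107 without SCRM replicate 1 (unadjusted p = 0.651). With the earlier 164 nt exon as partner it was 0.0849 with all libraries and 0.000154 without SCRM replicate 1. With the 159 nt exon just before it, the share was 0.377 and 0.355 against 0.387 and 0.355, and the groups overlapped. SCRM replicate 1, whose counts fall towards the 5′ end of ABI2, had the highest share of the 87 nt form in every pair with an earlier partner, and the part of its uneven coverage in these values was not tested.

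A mostly skipped 76 nt exon of ABI2 on chr2:204240780-204240855, whose length is not a multiple of 3, had PSI 0.0364 and 0.0703 with RBFOXi and 0.0494 and 0.0422 with SCRM. The groups overlapped (limma, unadjusted p = 0.792). In its other event, on only 9 to 54 counts, PSI was 0.172 and 0.394 with RBFOXi and 0.333 in both SCRM libraries (unadjusted p = 0.566). The remaining 12 of the 14 alternative ABI2 exons, each in its best covered event, were close to constant. In 10 of them PSI was at least 0.938 in every library, in 2 it was at most 0.0271, and in the 10 that were tested delta PSI lay between -0.0175 and 0.0097 with no unadjusted p under 0.0798.

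ABI1 had 10 alternative exons in all, 9 of them with lengths that are multiples of 3. Its 15 nt exon on chr10:27060004-27060018, exon 4 of the canonical transcript, had PSI 0.191 and 0.301 with RBFOXi and 0.153 and 0.292 with SCRM. Here the replicates spread more than the groups, which overlapped (limma, unadjusted p = 0.723). The 141 nt exon on chr10:27057781-27057921 was nearly always included, at 0.979 and 0.987 with RBFOXi and 0.994 and 1.00 with SCRM. On 9 and 6 skipping reads against 1 and 0, it had an unadjusted limma p of 0.0412 and an adjusted p of 1.00. The other 5 exons, each in its best covered event, were included at 0.988 or more or skipped at 0.00467 or less in every library. TGCATG stood in the 300 nt after 2 of the 10 ABI1 exons, the 87 nt exon and the constitutive 168 nt exon 2, whose PSI was 0.994 and 0.993 with RBFOXi and 0.994 and 0.990 with SCRM. In ABI1, the 300 nt before the exon held it for the 15 nt exon only. It also stood in the 300 nt after 1 of 14 ABI2 exons, of 159 nt, and 1 of 7 ENAH exons, of 79 nt. The 300 nt before the exon held it for the 201 nt and 98 nt exons of ABI2 and for no ENAH exon.

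ENAH had 7 alternative exons, of which 3 could be tested. All 3 had an unadjusted limma p under 0.05, against 3.32% of all tested skipped exon events, and 0 of them were called, against 0.167%. Their sequences are shown for the pair whose lengths keep the reading frame, the 111 nt exon on chr1:225704898-225705008 and the 63 nt exon on chr1:225692693-225692755 (both minus strand and coding).
ENAH 111 nt exon: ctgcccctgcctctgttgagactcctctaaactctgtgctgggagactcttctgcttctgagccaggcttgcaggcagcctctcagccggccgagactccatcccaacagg
ENAH 63 nt exon: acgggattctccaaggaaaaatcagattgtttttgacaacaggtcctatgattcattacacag
The 111 nt exon, exon 6 of the canonical transcript, had PSI 0.505 and 0.494 with RBFOXi and 0.705 and 0.546 with SCRM. Both RBFOXi values were below both SCRM values, but the SCRM replicates lay farther apart than the groups. Delta PSI was -0.126 and the log2 odds changed by -0.76 (95% interval -1.42 to -0.09; limma, unadjusted p = 0.0262, adjusted p = 1.00). SCRM replicate 1 had 268 counts in this event and SCRM replicate 2 had 4230. Without SCRM replicate 1, delta PSI was -0.0459 (unadjusted p = 0.403). No TGCATG occurred in either intron beside this exon, which are 1891 nt and 2295 nt long.

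The 63 nt ENAH exon, known for its use in epithelial cells, was skipped in nearly all transcripts of every library. PSI was 0.010 and 0.00706 with RBFOXi and 0.0282 and 0.028 with SCRM, from 7, 6, 4 and 32 inclusion reads in that order. The RBFOXi values lay below the SCRM values (log2 odds -1.75, 95% interval -3.14 to -0.37; limma, unadjusted p = 0.0138, adjusted p = 1.00), on a level near that of a few reads. Delta PSI of the 63 nt exon was -0.0196 with all libraries and -0.0195 without SCRM replicate 1. The nearest TGCATG began 475 nt before the exon and 1564 nt into the intron after it. The 166 nt exon 2 of ENAH, whose length does not keep the frame, had PSI 1.00 in both RBFOXi libraries and 0.925 and 0.996 in SCRM, from 0, 0, 3 and 2 skipping reads (limma, unadjusted p = 0.0208). Without SCRM replicate 1 its delta PSI went from 0.0394 to 0.00381 (unadjusted p = 0.499). The 4 exons that could not be tested were included at 0.995 or more in every library. The 1 ENAH MXE event tested had an unadjusted limma p of 0.179.

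Alternative 3′ splice sites gave smaller differences. The 174 nt and 177 nt forms of the ABI1 exon differ by acceptors 3 nt apart, and PSI of the longer form was 0.669 and 0.663 with RBFOXi and 0.725 and 0.686 with SCRM. The groups did not overlap, and the log2 odds changed by -0.27 (95% interval -0.80 to 0.26; limma, unadjusted p = 0.309). Of 4 ABI2 events, 3 were tested, with acceptors 4 nt or 6 nt apart, and their unadjusted p-values lay between 0.516 and 0.744. In all, 0 of 4 events were called, against 0.0% of the 3009 alternative 3′ splice sites tested, 0 had an unadjusted limma p under 0.05, against 2.96%, and the quasi-binomial F test called 0. The groups did not overlap in 2 of the 4, against 30.8% of all tested.

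The other actin regulators were examined as a list of 41 genes of the WAVE complex, the Ena/VASP family, the WASP branch, the Arp2/3 complex and their partners, of which 31 had a tested skipped exon event. None of their 181 tested events was called by limma, against 0.167% of all tested events, and 1 was called by the quasi-binomial F test. An unadjusted limma p under 0.05 was found for 10 events, 3 with lower and 7 with higher inclusion, or 5.52% against 3.32% of all tested. The median log2 odds change was 0.03 over the list and 0.06 over all tested events. For the WAVE complex genes of the list, which does not hold ABI1 or ABI2, 28 events in 7 genes were tested. Of these events, 0 had an unadjusted limma p under 0.05, against 3.32% of all tested. Mutually exclusive exons of the list gave 0 calls among 157 events tested, against 0.0115% of all tested.

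Among the events at an unadjusted p under 0.05, the 5 genes with the largest delta PSI were ARPC4, SOS1, VASP, ZYX and RAC1. ARPC4, an Arp2/3 subunit, had a 366 nt exon with PSI 0.88 and 0.768 with RBFOXi and 0.51 and 0.686 with SCRM (limma, unadjusted p = 0.014, adjusted p = 0.99994). These values came from 5 and 9 skipping reads with RBFOXi and 23 and 14 with SCRM. SOS1, an exchange factor that works with ABI1 on RAC1, had a 45 nt exon with 0.788 and 0.684 against 0.965 and 0.914 (unadjusted p = 0.000854, adjusted p = 0.275). RAC1, the GTPase upstream of the WAVE complex, had a 57 nt exon with 0.0256 and 0.0363 against 0.0601 and 0.0863 (unadjusted p = 0.000872, adjusted p = 0.276). In these 3 genes and in VASP the groups did not overlap, with inclusion higher in RBFOXi for ARPC4 and VASP and lower for SOS1 and RAC1. The groups did not overlap in 34.3% of the tested skipped exon events of the list and in 30.8% of all tested. VASP, a relative of ENAH, had an 85 nt exon with 0.979 and 0.979 against 0.936 and 0.909 (unadjusted p = 0.0488, adjusted p = 0.99994). Its skipping reads were 2 and 2 with RBFOXi and 6 and 7 with SCRM. ZYX, a focal adhesion protein that binds Ena/VASP proteins, had a 220 nt exon with 0.937 and 0.96 against 0.866 and 0.946 (unadjusted p = 0.0304, adjusted p = 0.99994), where RBFOXi replicate 1 lay between the SCRM libraries.

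Over the 4 libraries, the exons whose PSI was most like that of the ABI1 87 nt exon were sought among 30626 exons, 1 event per exon, by the root mean square difference of PSI. This was 0.0193 for a 411 nt exon of EPB41L1, 0.0622 for a 69 nt exon of ST7, 0.0628 for a 63 nt exon of MPRIP, 0.0705 for a 111 nt exon of CTTN and 0.0734 for a 50 nt exon of IQSEC1. CTTN encodes cortactin, which binds branched actin filaments, and its exon had PSI 0.469 and 0.375 with RBFOXi and 0.799 and 0.767 with SCRM. The first 4 of these exons were called by limma, against 0.167% of all tested skipped exon events, and the IQSEC1 exon was not, with an adjusted p of 0.45. The exons were picked by their PSI in the same libraries, so these calls follow from the choice and are no separate result.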

How the data were processed

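RNA-seq of 4 U87MG libraries (2 RBFOXi, 2 SCRM) was taken from the 5 event tables the authors deposited. Per the study's methods and processing notes, STAR 2.4.2a placed uniquely mapping reads on hg19 and rMATS counted them on UCSC known genes. The authors deposited raw counts of reads for either form, with both replicates of a group joined by a comma in 1 cell and no normalization, and effective form lengths. The deposited inclusion levels differed from PSI computed here by at most 0.0005. The deposited p-value, FDR and score of inclusion level difference are the authors' own comparison and were not used.

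limma 3.58.1 (R 4.3.3) was applied to the log2 odds of inclusion (pseudocount 0.5), two-sided, with condition as the only term. The variance trend followed the log2 inverse of the mean summed reciprocal counts of both forms, and Benjamini-Hochberg adjustment was made per event type. The fit was tested on simulated data. The p-values rest on the spread between the 2 replicates of each group, moderated by the trend that limma pools over events. The study calls the replicates independent and biological, and the labels of the RBFOXi replicates also differ by the Cy5 tag. Same-numbered libraries share an ending of their titles (D_R or P), but no source says what it marks, so the numbers were not taken as pairs.

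The members and gene lists were chosen with earlier results of these data known. Library values are given for each exon that passed the filter and had a control mean PSI between 0.05 and 0.95 or an unadjusted p under 0.05. From the actin list the 5 genes with the largest delta PSI at an unadjusted p under 0.05 are named, and for likeness the 5 nearest genes. Sequences and motifs come from GRCh37 (hg19) and exon annotation from the GENCODE lift to that build. Other computation used pandas 2.3.3, numpy 2.4.6 and scipy 1.17.1 in Python 3.11.15, with matplotlib 3.10.9 for plots. Alternatives covered the pseudocount, count filter, replicate block, definition of PSI, delta PSI minimum, each library left out, and, added after the data were seen, the quasi-binomial F test and the variance trend on total counts.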

Additional observations from a re-analysis of the deposited data

How the results depend on the processing

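The 4 skipped exon calls in ABI1 became 2 with a pseudocount of 0.1, 0 with the variance trend on total counts (5 events at an unadjusted p under 0.05) and between 1 and 4 with a library left out. A group with 1 library left was assumed to vary like the other. The trend on total counts left 0 of 39615 events called in the whole table, where the reported fit called 66. That count was 37 with a pseudocount of 0.1, 141 with the quasi-binomial F test, 39 without SCRM replicate 2 and 23 without RBFOXi replicate 2. For the ABI1 87 nt exon, whose delta PSI of -0.374 no choice of fit can move, the trend on total counts gave an adjusted p of 1.00, and delta PSI lay between -0.421 and -0.328 with a library left out. The definition of PSI did move it: by the plain share of inclusion reads, delta PSI of this exon was -0.313, and -0.168 in its best covered MXE event. In its best covered MXE event delta PSI lay between -0.221 and -0.182 with a library left out, with adjusted p between 0.00322 and 0.736. The MXE calls in the 3 genes went from 0 to between 0 and 10 with a library left out. The actin list went from 0 calls to 1 with the quasi-binomial F test.

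In the fit with a replicate block, the ABI1 87 nt exon had an adjusted p of 8.51e-15 (limma) and its best covered MXE event, with delta PSI -0.201, one of 2.71e-05, and there were 2 MXE calls in the 3 genes and 1 in the actin list. Over the whole tables the block gave 120 skipped exon and 45 MXE calls. Same-numbered libraries deviated together with a correlation of 0.0944 over skipped exon events, and 2 pairs do not show that the numbers mark a shared source. The planned edgeR alternative was not run, and the quasi-binomial F test was used in its place. The cause of the changes under each setting was not tested. SCRM replicate 1 limits what can be said of ENAH and of the 5′ exons of all 3 genes.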
